A study of Mus musculus with 15 samples.

Results

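A set of 8 neuropeptide precursor genes was followed through postnatal maturation in GFP-labelled interneurons of the mouse primary somatosensory cortex: Sst, Npy, Crh, Cck, Cartpt, Tac1, Vip and Penk. They were chosen by symbol, and every probe set of the array annotated to one of these symbols alone was read. That gave 9 probe sets, with 2 for Tac1 and 1 for each of the others, for 8 of the 18193 genes that had a probe set of their own. Levels were read on Affymetrix whole-genome mouse arrays as log2 GCRMA expression values, and values up to 5 were taken as background.

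There were 5 age groups of 3 animals, with 1 array an animal: postnatal day 7 (P7), P10, P15, P25 and P40, the last covering day 40 to day 45. All 15 animals carried the same G42 transgene, in which GFP is driven by promoter sequences of Gad1, the gene of a GABA-synthesizing enzyme, and marks a subset of cortical interneurons. The labels name no other genotype and no treatment of the animals, and neither strain nor sex. Between 23 and 85 fluorescent neurons were picked by hand from protease-treated, dissociated slices for each animal and pooled, so each value is an average over these cells. In such pooled samples, fewer cells of a type and less RNA per cell cannot be told apart. The number of arrays limits the precision. P-values set a difference between ages against the spread of arrays within ages, pooled over the 5 ages. This spread joins differences between animals with those from picking their cells and amplifying the RNA.

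Neuropeptides are made as long precursors, cut by convertases, trimmed and often amidated inside dense-core vesicles, and released to act on G-protein-coupled receptors. In the cortex they are best known from GABAergic interneurons, whose classes are named in part after them: somatostatin cells, often with neuropeptide Y, VIP cells, and cholecystokinin basket cells. The promoters of several precursor genes hold a cAMP response element, the site of the CREB transcription factors, and that of Sst is the textbook example.

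Promoter sequences of 6 of the 8 genes were found in the RefSeq table of the mouse build GRCm38.p6, and those around the element closest to the full palindrome are shown because it is a feature that the choice of genes did not use. Capitals mark the element, and each line runs 5′ to 3′ on the strand of the gene.
Sst, chr16:23890855-23890922, minus strand: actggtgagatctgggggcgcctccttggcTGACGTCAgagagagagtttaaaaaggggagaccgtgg
Cartpt, chr13:99900758-99900825, minus strand: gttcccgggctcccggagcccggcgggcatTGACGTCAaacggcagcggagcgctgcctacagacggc
Cck, chr9:121495707-121495773, minus strand: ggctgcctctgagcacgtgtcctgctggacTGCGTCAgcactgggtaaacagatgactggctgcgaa
Tac1, chr6:7554832-7554898, plus strand: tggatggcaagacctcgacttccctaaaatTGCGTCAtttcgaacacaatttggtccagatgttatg
Vip, chr10:5639109-5639173, plus strand: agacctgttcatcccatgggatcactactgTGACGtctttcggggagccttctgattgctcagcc

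Both strands of each 300-base window, from 250 bases before to 50 bases after the annotated start, were searched. The full palindrome TGACGTCA began 48 bases before the start of Sst and 112 bases before that of Cartpt, and 1.79% of the 32851 promoters in the table held it. The variant TGCGTCA began 49 bases before the start of Cck and 199 bases before that of Tac1, and 2.12% of promoters held it. The short element TGACG, which every copy of the other 2 motifs contains on at least one strand, stood alone in Vip, 79 bases before the start. It was present in 20.8% of promoters. Vip also held the TATA element TATAAA, found in 13.6% of promoters, and the Npy window held none of the 4 motifs. A match is a description of these letters, not evidence of a bound factor.

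Pvalb, the calcium-binding protein of fast-spiking interneurons, was at background on all P7 arrays, with a mean of 3.62, and read 14.28 at P40. Gad1 averaged 13.88 and 14.98 at these ages. Slc17a7, which loads glutamate into the vesicles of excitatory neurons, lay between 2.41 and 2.62 on the 15 arrays. Array medians lay between 3.21 and 3.46. P15 replicates 2 and 3 had low spike-control signals (2.45 and 2.43, against 9.18 to 12.8 on the others), and P15 replicate 2 held the fewest cells, 23. P40 replicate 1, from 38 cells, stands apart in Sst and Crh. Results on the 8 genes that change without these arrays are given with and without them.

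Of the 8 genes, 3 rose from P7 to P40: Cck, Cartpt and Tac1. Npy differed between ages without passing the test for P40 against P7, and Vip was at background on every array. Sst, Crh and Penk passed no test. By limma with Benjamini-Hochberg adjustment over 9663 genes, 3 of the 7 genes tested were called higher at P40 than at P7, and the other 4 passed in neither direction. Over all genes tested, 45.2% were called in either direction, 27.5% higher and 17.6% lower. The median P40-minus-P7 difference was 1.36 on the log2 scale for the 7 genes and 0.18 for all genes tested. Any difference between ages was called for 4 of 7, against 47.2% of all genes. Tested by probe set, 3 of 7 were called between P7 and P40, against 41.9% of 15381 probe sets.

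**Figure D1:**
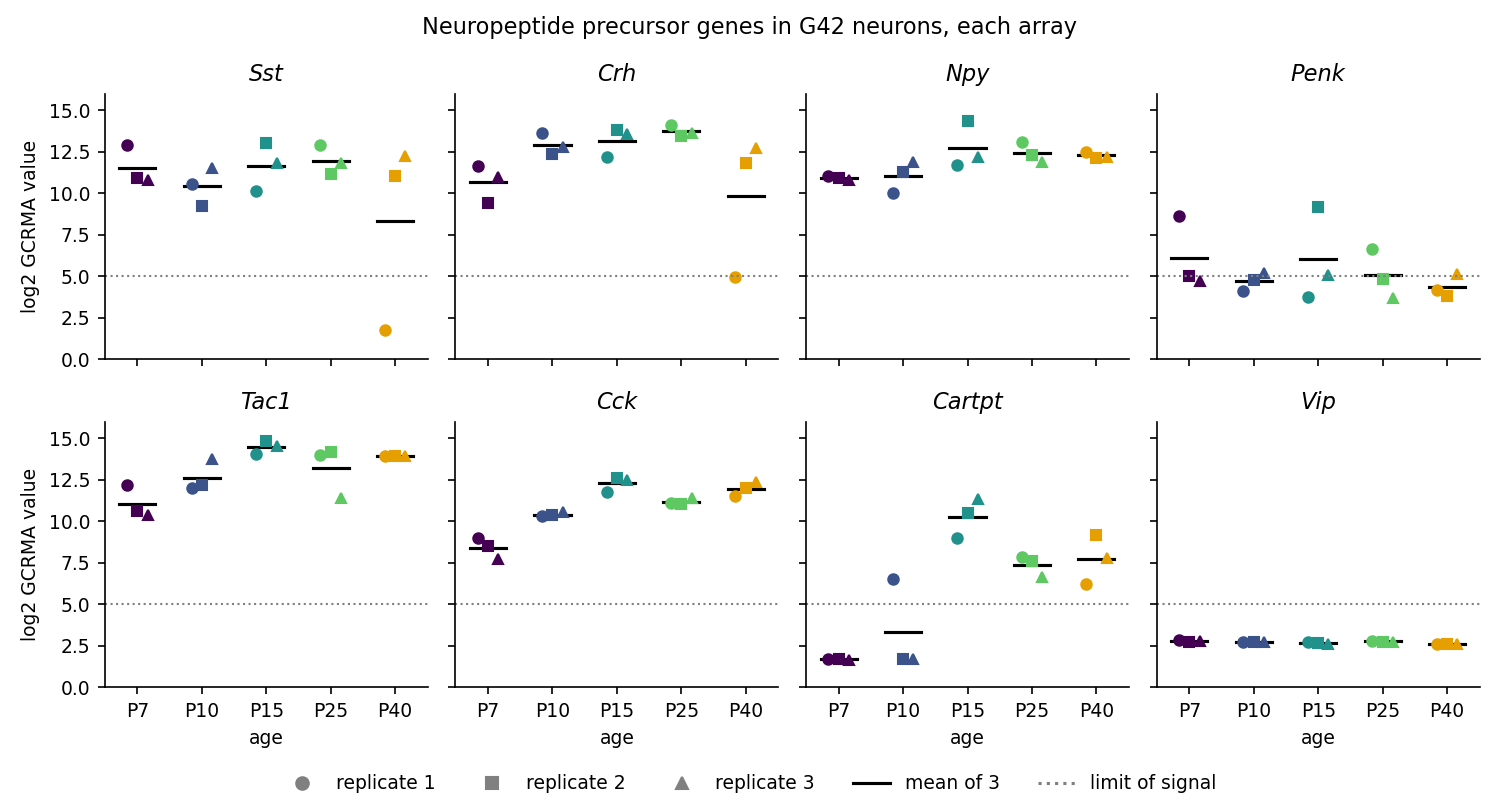
Log2 GCRMA values (y axis) of the 8 precursor genes at 5 ages (x axis), with 1 point an array, a bar for the mean of 3 and a dotted line at the limit of 5. Cck, Cartpt and Tac1 have their lowest means at P7 and their highest at P15, Vip lies between 2.58 and 2.87 throughout, and the lowest Sst and Crh points, 1.72 and 4.97, are both P40 replicate 1.

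All calls between neighbouring ages fell between P7 and P15. From P7 to P10, 1 of the 7 genes was called higher (Cck), against 2.37% of all genes. From P10 to P15, 2 were called higher (Cck and Cartpt), against 8.57% of all genes. From P15 to P25, limma called 0 of 7, against 4.86% of all genes in either direction. At an unadjusted p under 0.05 there were 2 of 7 (Cck and Cartpt, both lower), and 1838 of the 9663 genes. From P25 to P40 it also called 0 of 7, against 0.673% of all genes. At an unadjusted p under 0.05 there were again 2 of 7 (Cck higher and Crh lower), and 1110 of the 9663 genes.

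**Figure D2:**
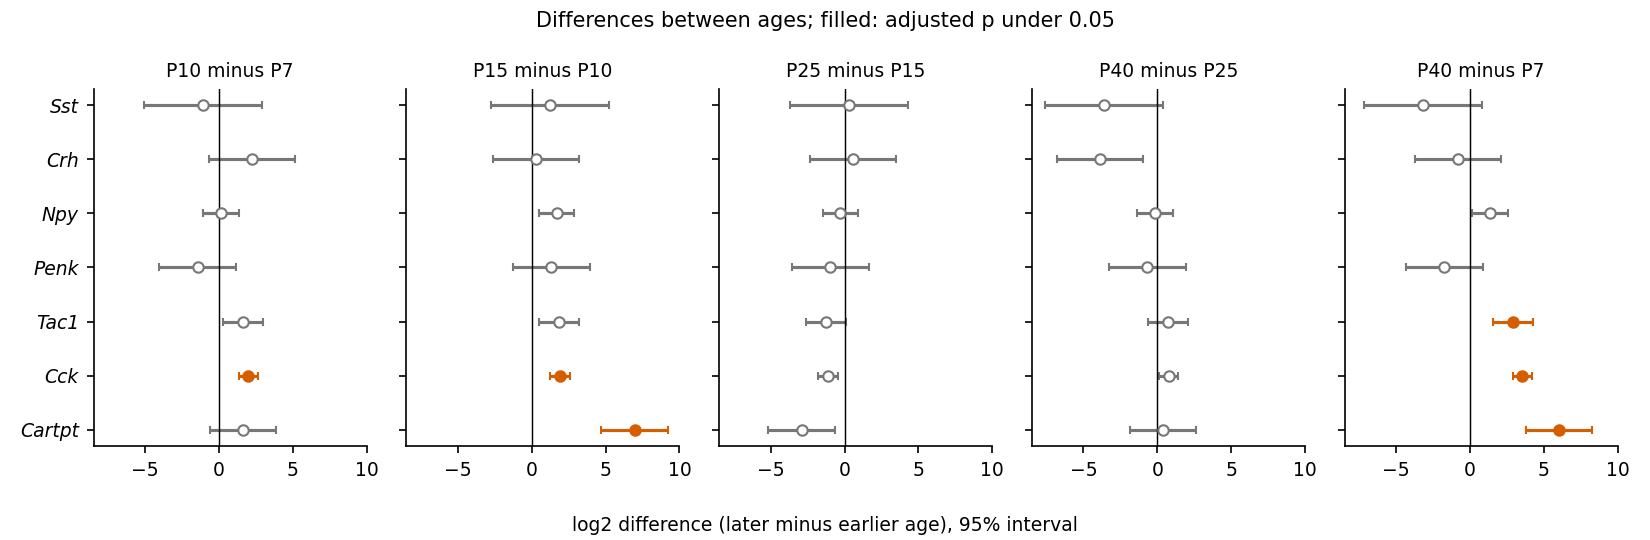
Differences between ages in log2 units (x axis, later minus earlier age) for the 7 tested precursor genes (y axis), with 95% intervals of the limma fit. Filled points have an adjusted p under 0.05. In P40 minus P7 the intervals of Cck, Cartpt, Tac1 and Npy lie above 0, that of Npy with an open point. The interval of Sst runs from -7.19 to 0.81.

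Cck encodes cholecystokinin, a peptide of basket cells and of many excitatory neurons, and it rose from P7 to P10 and again from P10 to P15. Its 3 arrays read 8.98, 8.49 and 7.76 at P7 and 10.30, 10.36 and 10.55 at P10. They read 11.75, 12.63 and 12.50 at P15, then 11.12, 11.04 and 11.42 at P25 and 11.51, 12.02 and 12.35 at P40. Every array of a later age lay above all P7 arrays, and in the order P7, P10, P25, P40, P15 only the neighbours P40 and P15 overlapped. Cck was 11.7-fold higher at P40 than at P7, a log2 difference of 3.55 (SE 0.31, adjusted p 8.2e-07), in 3 of 3 animals. The first step, P7 to P10, was 3.98-fold (log2 1.99, SE 0.31, adjusted p 0.0017), and the second, P10 to P15, was 3.71-fold (log2 1.89, SE 0.31, adjusted p 0.0037). From P15 to P25 the difference was -1.10, which did not pass (adjusted p 0.056). Without P15 replicates 2 and 3 and P25 replicate 2, the P10-to-P15 difference was 1.35, with P15 replicate 1 as the only P15 array. That fit cannot decide whether the call holds, since P15 then has no spread of its own. With the number of picked cells as a covariate the P10-to-P15 difference was 1.55 and no longer passed (adjusted p 0.16). Of 13 excitatory neuron markers, 12 were on the array and 3 were tested, with 1 higher at P40 (Camk2a, 2.08, adjusted p 0.00014). Their summed level was 10.20 to 11.46 at P7 and 10.82 to 11.30 at P40, but Cux2, which is not particular to excitatory neurons, made up 65.8% to 93.9% of it. Slc17a7, Slc17a6, Neurod6, Neurod1, Neurod2, Tbr1 and Emx1 stayed below 5 on all arrays. The other markers not tested did not: Fezf2 read 7.23 on P10 replicate 1, and Rorb 6.92 on P10 replicate 2 and 5.82 on P7 replicate 3. Nrgn, the postsynaptic protein neurogranin, was added outside the rule for naming genes of a list. It read 5.34, 4.42 and 5.77 at P7 and 8.93, 8.78 and 8.47 at P10, the first step in which Cck rose. At P15, when Cck had risen again, Nrgn read 8.51, 4.96 and 6.42. It read 4.72, 4.41 and 4.01 at P25 and 4.26 to 4.28 at P40. The part of such cells in the Cck values was not tested.

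Cartpt encodes the precursor of the CART peptides, known for their action on appetite and stress. It went from background to a clear signal between P10 and P15. At P7 it read 1.73, 1.70 and 1.67, and at P10 one animal read 6.53 and the others both 1.73. At P15 the arrays read 9.01, 10.50 and 11.34, at P25 7.84, 7.63 and 6.65, and at P40 6.24, 9.19 and 7.80. All 9 arrays from P15 on lay above the limit of 5, while P10 replicate 1 was the only younger array to do so. At P40 it was at least 6.70-fold above the limit that the P7 arrays did not reach (log2 difference 6.04, SE 1.05, adjusted p 0.00033). The fitted P10-to-P15 difference was 6.96 (SE 1.05, adjusted p 0.0021), which includes P10 values at background. With values under 5 set to 5 it was 4.77 (adjusted p 0.0016), and P40 minus P7 was 2.74 (adjusted p 0.0052). Without P15 replicates 2 and 3 and P25 replicate 2 the P10-to-P15 difference was 5.68, with P15 replicate 1 as the only P15 array. That fit cannot decide whether the call holds, since P15 then has no spread of its own. In a fit of only the P10 and P15 arrays the difference of 6.96 did not pass (adjusted p 0.054). The P25 mean was 7.37, and its difference of -2.92 from P15 did not pass (adjusted p 0.13).

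Tac1 encodes the precursor of substance P and neurokinin A, tachykinins found in parvalbumin cells of the cortex. At P7 its arrays read 12.17, 10.61 and 10.36, and at P10 11.99, 12.21 and 13.74. At P15 they read 14.04, 14.87 and 14.55, at P25 14.002, 14.19 and 11.44, and at P40 13.96, 13.93 and 13.93. The P40 animals agreed to within 0.02, the closest triplet of any tested gene of the set, and all 3 lay above all P7 arrays. Tac1 was 7.42-fold higher at P40 than at P7 (log2 2.89, SE 0.64, adjusted p 0.002). Neither single step passed: P7 to P10 gave 1.59 (adjusted p 0.2) and P10 to P15 gave 1.84 (adjusted p 0.07). With the 3′-to-5′ difference of the beta-actin probe sets, a measure of RNA quality, as a covariate, the P40-minus-P7 difference was 2.12 (adjusted p 0.064). That actin difference was 4.64 to 6.41 at P7 and 3.40 to 4.50 at P40, and its part in the rise was not tested further. The second Tac1 probe set lay at 3.21 to 3.76 on all arrays and was not tested.

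Npy encodes neuropeptide Y, which acts mainly to dampen transmitter release and is carried by somatostatin and neurogliaform cells. Its arrays read 11.05, 10.91 and 10.79 at P7, and 9.98, 11.25 and 11.89 at P10. They read 11.67, 14.32 and 12.15 at P15, 13.10, 12.32 and 11.89 at P25, and 12.48, 12.14 and 12.20 at P40. Every P15, P25 and P40 array lay above every P7 array, and P10 was spread over 1.91 log2 units. Any difference between ages was called (adjusted p 0.036), but the P40-minus-P7 difference of 1.36 (SE 0.56) was not (adjusted p 0.063). P10 to P15 gave 1.67 (SE 0.56, adjusted p 0.065). The widest age was P15, because of replicate 2. Without that array P40 against P7 gave the same difference with an adjusted p of 0.013. The call for any difference was lost when 9 of the 15 arrays were left out in turn, with adjusted p between 0.013 and 0.074 over all 15.

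Sst encodes somatostatin, the peptide that names another interneuron class than the one the line is used for. Its arrays read 12.92, 10.90 and 10.76 at P7, 10.55, 9.20 and 11.53 at P10, and 10.10, 13.04 and 11.81 at P15. They read 12.88, 11.16 and 11.83 at P25, and 1.72, 11.04 and 12.24 at P40. On 14 of the 15 arrays Sst lay at 9.20 or above, and on P40 replicate 1 it was at background. Ages next to each other in the order of their means overlapped throughout. The P40-minus-P7 difference was -3.19 (SE 1.88, adjusted p 0.18), with a 95% interval from -7.19 to 0.81. Without P40 replicate 1 it was 0.11 (adjusted p 0.93), and without P40 replicate 3, which leaves that array 1 of 2, it was -5.15 (adjusted p 0.04).

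Crh encodes corticotropin-releasing hormone, the stress peptide of the hypothalamus, which cortical interneurons also make. Its arrays read 11.64, 9.37 and 10.98 at P7, and 13.59, 12.37 and 12.76 at P10. They read 12.15, 13.81 and 13.54 at P15, 14.13, 13.43 and 13.63 at P25, and 4.97, 11.84 and 12.73 at P40. All P10, P15 and P25 arrays lay above all P7 arrays, and P40 ran from the lowest value of the series to values within the P10 to P15 range or just under it. Crh was called in no test of all 15 arrays: the P40-minus-P7 difference was -0.82 (SE 1.37, adjusted p 0.65), P40 minus P25 was -3.88 (adjusted p 0.24), and any difference between ages had an adjusted p of 0.088. Without P40 replicate 1, any difference between ages was called (adjusted p 0.0037), and P40 was 1.62 above P7 (adjusted p 0.049). Crh then also joined Cck among the genes called from P7 to P10. Without P40 replicate 3, any difference was called as well (adjusted p 0.023), with P40 minus P7 at -2.26 (adjusted p 0.2).

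With values under 5 taken as 5, Sst on P40 replicate 1 lay at least 4.199 log2 units below every other array and Crh at least 4.37. They were the 2 genes of all tested that lay at least 4 units below the rest on that array, and the other 14 arrays had 0 such genes each. Gda, a guanine deaminase, came next at 3.85 units or more. The number of genes at or under 5 on that array alone was 54, within the 5 to 94 of the other arrays. Of the other precursor genes, Npy (12.48) and Tac1 (13.96) had their highest P40 value on it, and Cck (11.51) and Cartpt (6.24) their lowest, while Penk was below the limit (4.18). Cort, the somatostatin-related cortistatin, read 8.22, its lowest P40 value. Markers on the somatostatin cell list went both ways there. Crhbp, the CRH-binding protein, read 12.14, its highest value on any array, and Rbp4, a retinol-binding protein, read 11.49. Grin3a, an NMDA receptor subunit, read 4.33 against at least 7.15 on the other arrays, and the transcription factor gene Npas1 read 2.31, under the limit, as on 8 others. Calb1, calbindin, another marker on that list, was at background on it (3.04) and on P40 replicate 2 (3.49), but 10.41 on P40 replicate 3. Of the somatostatin cell list, leaving out the genes under study, 16 of 17 were on the array and 11 were tested. Its summed level lay between 14.42 and 14.78 on the P40 arrays and between 13.88 and 14.48 at P7, but Satb1, which other interneurons also express, made up 39.97% to 70.0% of it over the 15 arrays. Between P7 and P40, 4 of the 11 rose and 4 fell, against 27.5% and 17.6% of all genes. First by p were Rbp4 (2.52) and Nos1 (1.70) among those that rose, and Chodl (-5.26) and Calb1 (-5.17) among those that fell. All P40 arrays were at or below 5 for Chodl, a bound of at least 18.2-fold lower, and all P7 arrays for Nos1, a bound of at least 1.76-fold higher. With the actin covariate Rbp4 (1.19, adjusted p 0.13), Nos1 (1.29, adjusted p 0.089) and Calb1 (-4.89, adjusted p 0.069) no longer passed. The part of cells of this class in the Sst and Crh values was not tested.

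**Figure D3:**
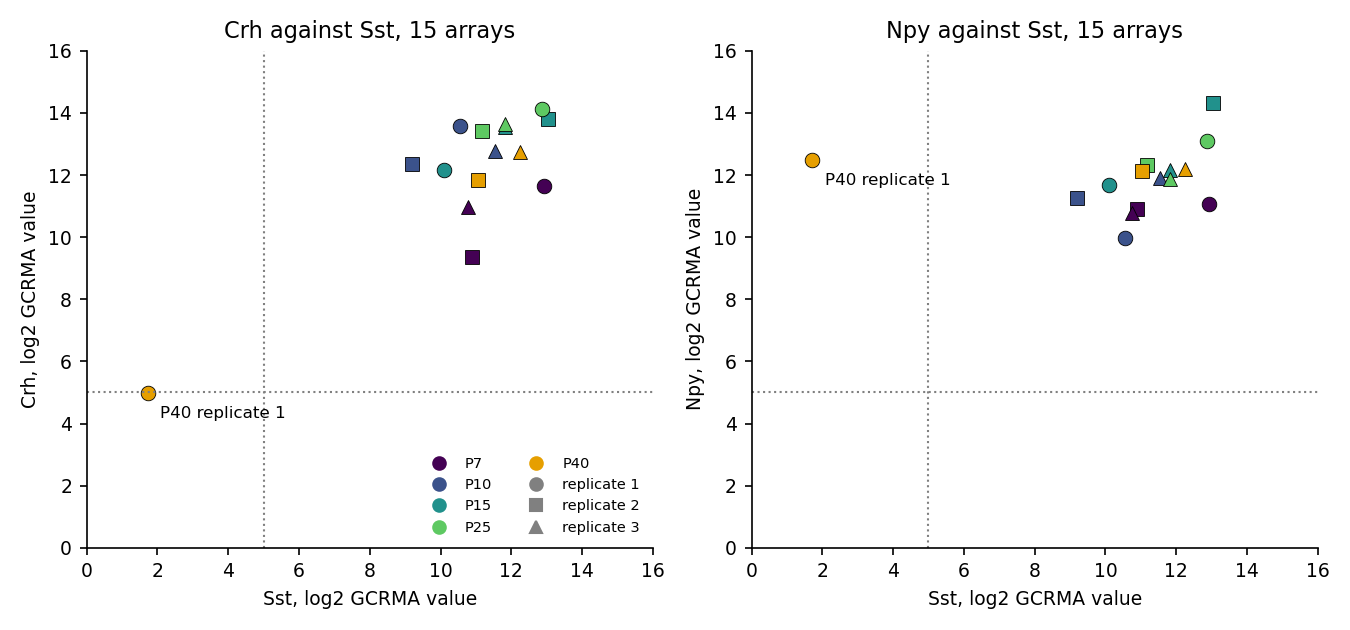
Log2 GCRMA values of Crh (left, y axis) and Npy (right, y axis) against Sst (x axis) on 15 arrays, coloured by age and with a symbol for each replicate number; dotted lines mark the limit of 5. P40 replicate 1 sits alone at 1.72 for Sst and 4.97 for Crh, while its Npy value, 12.48, is among those of the other arrays.

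Penk encodes the precursor of the enkephalins, opioid peptides found in VIP cells among others. It stayed near the limit of 5 on most arrays and was high on a few. The arrays read 8.62, 5.002 and 4.71 at P7, 4.09, 4.76 and 5.17 at P10, and 3.76, 9.17 and 5.09 at P15. They read 6.65, 4.83 and 3.65 at P25 and 4.18, 3.79 and 5.14 at P40. At P7, P15 and P25 one animal stood above the other 2, and ages next to each other in the order of their means all overlapped. The P40-minus-P7 difference was -1.74 (SE 1.22, adjusted p 0.26). With the number of picked cells as a covariate it was -3.19 (adjusted p 0.041), and with the actin difference -4.00 (adjusted p 0.041).

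Vip, the vasoactive intestinal peptide of a further interneuron class, lay between 2.58 and 2.87 on the 15 arrays and was not tested. Without the filter on low values, its P40-minus-P7 difference of -0.18 passed (adjusted p 0.01), at levels that are all background. On the list of markers for VIP, cholecystokinin and neurogliaform cells, leaving out the genes under study, 16 of 16 were on the array and 3 were tested, of which 2 fell, against 17.6% of all genes. The serotonin receptor Htr3a stayed at 2.02 to 2.10. Of the other markers not tested, Lamp5 read 8.25 on P25 replicate 1, Kit 7.42 on P15 replicate 3 and Calb2 7.19 on P7 replicate 2. Crispld2 and Ndnf were above 5 on 2 arrays each, and the rest stayed below 5 on all arrays. Reln, an extracellular protein also made by somatostatin cells, fell by 2.70 (adjusted p 0.00078) and Id2, an inhibitor of transcription factors, fell by 2.32 (adjusted p 0.012). Without P40 replicate 1 the Id2 difference was -1.92 and did not pass (adjusted p 0.058). The third tested marker, the cannabinoid receptor Cnr1, which is abundant in cholecystokinin basket cells, differed by 1.44 and did not pass (adjusted p 0.085). The summed level of the list was 11.91 to 13.02 at P7 and 11.36 to 11.87 at P40. Reln alone made up 8.52% to 85.4% of this sum over the 15 arrays.

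P15 replicate 2 was the highest array for 5 of the 7 tested genes: Sst, Npy, Cck, Tac1 and Penk. Of all genes tested, 10.5% were highest on that array. It read 14.32 for Npy and 9.17 for Penk, each the highest of its 3 P15 values. Cort, at 11.70, and Rbp4, at 13.28, were also highest there. The part of its 23 cells and its low spike controls in these values was not tested.

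Genes of dense-core vesicles and peptide processing included 12 that rose. On a list of 30 dense-core vesicle and processing genes, 28 were on the array, 21 were tested, and from P7 to P40 12 rose and 1 fell, against 27.5% and 17.6% of all genes. The median difference was 0.88 over the 21, and 0.18 over all genes. Cadps, which primes dense-core vesicles for release, rose by 1.02 (SE 0.14, adjusted p 4.5e-05). Its arrays read 12.89, 12.71 and 12.52 at P7 and 13.83, 13.68 and 13.68 at P40. Chgb, the granule protein chromogranin B, rose by 1.06 (SE 0.16, adjusted p 9.7e-05), from 13.72, 13.43 and 13.57 to 14.73, 14.45 and 14.70. The groups did not overlap for either gene. Cadps2, the paralog of Cadps, went the other way, from 6.63, 8.87 and 7.38 to 2.29, 3.84 and 2.50. It was at least 6.18-fold lower at P40 (log2 -4.75, SE 1.22, adjusted p 0.0056). A pair of genes was picked out after their values were seen: Scg2, a secretogranin, had the largest rise of the list (3.03, SE 0.60, adjusted p 0.00086), and Cpe, the carboxypeptidase that trims most neuropeptides, rose by 0.69 (SE 0.21, adjusted p 0.016). Of the convertases that cut precursors, Furin differed by -0.32 (adjusted p 0.52), and Pcsk1 (2.24 to 2.69), Pcsk5 and Pcsk6 did not pass the filter. Pcsk2, also on the list, had no probe set annotated to it alone and was not read. With the actin difference as a covariate, 6 members of the list rose instead of 12. Over all genes, calls in either direction fell from 4365 to 2652 with this covariate. Markers of other cells also differed between P7 and P40. Of 4 tested astrocyte markers S100b rose by 2.50 (adjusted p 0.023) and Slc1a2 fell by 1.35 (adjusted p 0.015), of 3 oligodendrocyte markers Cnp fell by 1.65 (adjusted p 0.0025), and the 1 microglial marker tested, Csf1r, fell by 1.83 (adjusted p 0.0059). Without P40 replicate 1 the S100b difference was 1.39 (adjusted p 0.13). With values under 5 set to 5, S100b differed by 1.37 (adjusted p 0.063) and Slc1a2 by -0.26 (adjusted p 0.45). Csf1r then differed by -0.38 (adjusted p 0.22), so these calls were lost. The summed level was 6.13 to 7.67 at P7 and 5.95 to 8.42 at P40 for 8 astrocyte markers, 10.75 to 11.08 and 8.95 to 9.93 for 6 oligodendrocyte markers, and 6.54 to 7.52 and 6.01 to 6.19 for 6 microglial markers. Gfap, Mog and Aif1 stayed under 5 on all arrays, but other markers on these lists did not. Slc1a2 read 8.30, 8.55 and 8.47 at P10. At P25 Mbp read 11.58, 11.56 and 10.48, and Mobp 7.71, 8.37 and 6.34. The summed level was 8.54 to 9.19 at P10 for the astrocyte markers. For the oligodendrocyte markers it was 11.02 to 12.20 at P25. The part of these cells in the changes was not tested.

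**Figure D4:**
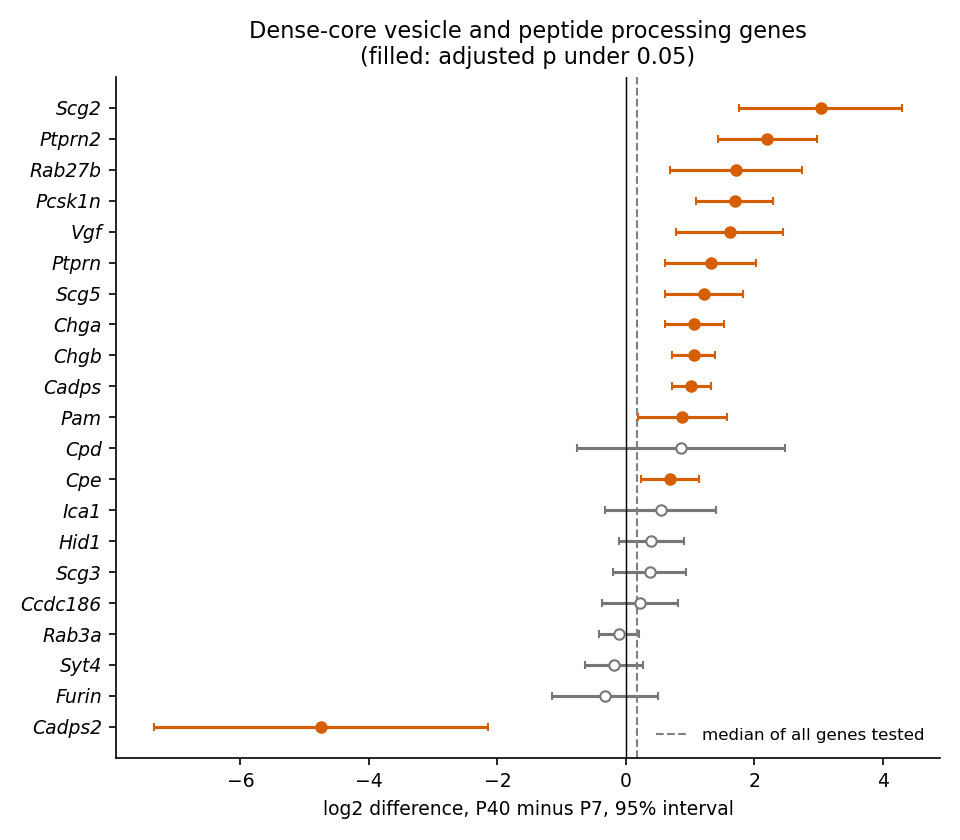
P40-minus-P7 differences in log2 units (x axis) of the 21 tested dense-core vesicle and peptide processing genes (y axis), with 95% intervals of the limma fit; filled points have an adjusted p under 0.05 and the dashed line is the median of all genes tested. There are 12 filled points above 0, from Cpe at 0.69 to Scg2 at 3.03, and Cadps2 alone below, at -4.75.

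On a list of 25 receptors and binding proteins of the 8 peptides, all 25 were on the array, 7 were tested and 2 rose, against 27.5% of all genes, while the other 5 passed in neither direction. Cckbr, the main cholecystokinin receptor of the brain, was 11.97-fold higher at P40 than at P7 (log2 3.58, SE 0.49, adjusted p 4.4e-05). Its arrays read 7.96, 7.29 and 5.38 at P7, 9.67, 10.04 and 9.68 at P15, and 10.54, 10.43 and 10.40 at P40, with no overlap between P7 and the later 2 ages. Crhbp rose by 1.72 (SE 0.67, adjusted p 0.049), from 9.66, 9.17 and 10.33 to 12.14, 10.93 and 11.27. This call was lost in 10 of the 15 fits that left out 1 array, among them that without P40 replicate 1 (1.38, adjusted p 0.17). At the other end, 18 of the 25 did not pass the filter, among them the neuropeptide Y receptor Npy1r (2.61 to 2.75), the CRH receptor Crhr1 (2.15 to 4.62) and the substance P receptor Tacr1 (2.53 to 2.64).

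Of 52 other neuropeptide precursor genes, 40 were on the array and 34 of these did not pass the filter. Of the 6 tested, 1 rose and 2 fell, against 27.5% and 17.6% of all genes. Adm, the vasodilator peptide adrenomedullin, read 2.10, 2.20 and 2.75 at P7 and 8.26, 6.21 and 7.58 at P40. It was at least 5.11-fold higher (log2 5.003, SE 0.65, adjusted p 2.6e-05), and all its P15 arrays, 6.98 to 7.33, were already above 5. Edn1, the vasoconstrictor endothelin 1, read 4.43, 7.24 and 9.33 at P7 and 3.41 to 3.44 at P40, a difference of -3.57 (adjusted p 0.01) that was -2.41 without P7 replicate 3 (adjusted p 0.058). None of the 6 endothelial and mural markers passed the filter, and the part of such cells in the Edn1 values was not tested. Grp, gastrin-releasing peptide, read 2.62, 6.90 and 5.92 at P7 and 2.29 to 2.49 at P40 (-2.73, adjusted p 0.035). The Grp call was lost in 5 of the 15 fits that left out 1 array, each of P7 replicates 2 and 3 and the 3 P40 arrays. Its adjusted p was 0.17 without P7 replicate 2. With values under 5 set to 5, the Grp difference was -0.94 and did not pass (adjusted p 0.21). Cort and Pnoc, the precursor of nociceptin, stayed above 7 on all arrays and passed no test between P7 and P40 (0.37, adjusted p 0.62, and -0.47, adjusted p 0.48).

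On a list of 19 CREB-related genes and interneuron regulators of peptide genes, 16 were on the array, 13 were tested and 3 fell, against 17.6% of all genes, while the other 10 passed in neither direction. Lhx6, the homeobox factor of interneurons from the medial ganglionic eminence, fell by 0.83 (SE 0.19, adjusted p 0.0027), from 12.17, 12.30 and 11.88 to 11.39, 11.26 and 11.20. Crtc1, a coactivator of CREB, fell by 1.33 (SE 0.32, adjusted p 0.0036), from 7.75, 6.98 and 7.12 to 5.53, 5.93 and 6.39. P7 and P40 did not overlap for either gene. Creb1 itself differed by 0.31 between P7 and P40 (adjusted p 0.35).

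Genes most like each precursor were ranked by Pearson's r with it over the 15 arrays, as a description, since arrays of an age share that age. Cck was followed by Got2, a mitochondrial aminotransferase, at 0.960, Auh, an enzyme of leucine breakdown, at 0.958, and Fndc5, the irisin precursor, at 0.958. Tac1 was followed by Aldh5a1, which degrades GABA, at 0.942, the citric acid cycle subunit Idh3a at 0.939, and Ube2b, a ubiquitin-conjugating enzyme, at 0.936. Cartpt was followed by the polarity gene Pard6a (0.934), the deacetylase Hdac11 (0.925) and Micos13 (0.909), and Npy by Tmem18 (0.908), the transferrin receptor Tfrc (0.896) and Tmem62 (0.886). Penk was followed by Rcl1 (0.850), Bambi (0.849) and Gpd1 (0.846), but Penk was above 5 on only 7 of the 15 arrays. Spearman's rank correlations with Penk were lower, at 0.771 for Rcl1, 0.489 for Bambi and 0.504 for Gpd1.

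Sst and Crh were each among the 3 most like the other. Sst was followed by Synpr, synaptoporin, at 0.858, Crh at 0.848 and Gda at 0.842, and Crh by Sst, Trhde (0.824) and Dsg2 (0.823). Over the other 14 arrays, without P40 replicate 1, Sst had an r of 0.699 with Synpr, 0.352 with Crh and 0.292 with Gda, and Crh one of 0.700 with Trhde and 0.658 with Dsg2. For deviations of each array from its age mean, Sst was again closest to Crh (0.961), followed by Gda (0.948), and without that array these were 0.740 and 0.729. Penk deviations were closest to those of Rbp4 (0.933, and 0.936 without P40 replicate 1), with Penk above 5 on only 7 of the 15 arrays.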

How the data were processed

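Per the labels' protocols, brain slices 400 µm thick were digested with 1 mg/ml of protease, and the RNA of a sample, 0.3 to 1 ng, was amplified by T7 transcription in 2 rounds. The deposited values are log2 expression values per probe set that the authors computed with GCRMA, per the submitters' processing notes; no version is named there. Of 45101 probe sets, 34945 had 1 gene symbol, 932 had several and 64 were controls. A gene was read from the brightest (by mean) of its single-gene probe sets and tested if that exceeded 5 in at least 3 of 15 arrays (9663 of 18193 genes). Values were used without further normalization. limma 3.58.1 in R 4.3.3 fitted a mean for each of 5 ages (10 residual degrees of freedom) with a trended prior. All tests were two-sided, and adjusted p is Benjamini-Hochberg over all genes within a contrast, with calls under 0.05. SE belongs to the log2 difference and ± is the SD. A fold is given where both means exceed 5, and as a bound against 5 where all arrays of an age do not. A list's summed level is the log2 of the summed linear values of its members on the array. The genes and lists were chosen with earlier results of these data known. Named from a list are the 2 genes of lowest adjusted p among those called higher and among those called lower, and for likeness the 3 genes with the highest Pearson's r. The fit was tested on simulated data, and 30 other settings were tried. Figures used Python 3.11.15, pandas 2.3.3 and matplotlib 3.10.9.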

Additional observations from a re-analysis of the deposited data

How the results depend on the processing

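The number of the 8 genes called between P7 and P40, 3, was 3 or 4 under each of the 30 other settings. Cck and Cartpt were called in each, and Tac1 was lost with the actin covariate. The genes that joined differed in direction. Npy joined as higher in several settings, and Crh as higher without P40 replicate 1. Penk joined as lower with the picked cells or the actin covariate, Vip as lower with no filter, and Sst as lower without P40 replicate 3. From P15 to P25, 1 gene was called instead of 0 after quantile normalization, with equal array medians or with values under 5 set to 5. With array weights or only the arrays of the 2 ages 2 were called, and leaving out 1 array gave 0 to 1. Over all genes, 470 were called from P15 to P25 as reported and 1622 with array weights. From P25 to P40, 1 was called with no filter (Vip) or array weights, while calls over all genes went from 65 to 2998 and 1001. From P10 to P15, 4 were called with array weights, and 1 with the picked cells as a covariate or only the arrays of the 2 ages. Calls over all genes moved the same way, from 1098 to 2955, 33 and 53 in these settings. Leaving out 1 array gave 2 to 4, and 149 to 1905 of all genes. Without P15 replicates 2 and 3 and P25 replicate 2, 1 P15 array was left. The P10-to-P15 differences were then 1.35 for Cck and 5.68 for Cartpt. From P7 to P10, 0 were called with only the arrays of the 2 ages, and 1 to 2 when 1 array was left out. Over all genes these were 43, and 191 to 385, against 348 as reported. Any difference between ages was called for 2 with the picked cells as a covariate. Crh, P40 minus P7, changed sign to 0.29 with array weights, 0.094 with the picked cells and 1.62 without P40 replicate 1, and ran from -2.26 to 1.62 when 1 array was left out. Sst, P40 minus P7, became 0.11 without that array and ran from -5.15 to 0.11. The cause of these changes was not tested.

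Replicate numbers are shared between ages but come from different animals. Deviations of arrays with the same number had a median correlation of -0.07 (-0.40 to 0.27, 30 pairs), against 0.02 for 60 pairs with different numbers. With the replicate block, 3 genes were called between P7 and P40, as without it, and 3 instead of 4 for any difference between ages, since Npy was lost (adjusted p 0.052). Over all genes, P15 minus P10, all genes called fell from 1098 to 727 with the block, and P40 minus P25, all genes called from 65 to 16.

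Of P40 minus P7, all genes called, 4365, the count was 8295 with no filter and 2652 with the actin covariate. Of P40 minus P7, percent of calls higher, 61.0, the share was 49.4 with equal array medians and 33.4 with no filter; the percent of P15 minus P10, percent of calls higher, was 75.4 and 47.8 with equal array medians. Precision is limited by 3 arrays an age, and values up to 5 carry no order.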

Other observations

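Outside the peptide genes, P40 replicate 1 held other values that no other array showed. Frmd4b, a scaffold protein, read 3.73 against at least 7.42 on the other 14 arrays, and Kcnc4, a Kv3 potassium channel subunit, read 3.49 against at least 7.05. These genes were picked out because of their values on this array.

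Between the precursor genes themselves, Cck and Cartpt had an r of 0.860 over 15 arrays and Cck and Tac1 one of 0.848, while deviations from the age means gave 0.168 and 0.279. For Npy and Penk the order was the other way, with 0.448 over the arrays and 0.780 for the deviations. Both genes were highest on P15 replicate 2 (14.32 and 9.17), and Penk was above 5 on only 7 of the 15 arrays. The correlation of this pair without P15 replicate 2 was not computed. All of these correlations are descriptions of 15 arrays that share 5 ages.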
